A study of Mus musculus with 28 samples.

Results

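Knockout bladder was set against knockout proximal stomach at E18, to ask whether these organs came to resemble each other without p63 or each kept the transcripts of its own organ. The comparison rests on 4 of the 28 arrays of the series: 2 of p63 knockout (KO) bladder, chosen by their titles although these misspell the organ, and 2 of p63 KO proximal stomach, each group holding replicates 1 and 2. All are Balb/c mouse tissue collected on embryonic day 18. The wild-type (WT) bladder and WT proximal stomach of the same strain and stage, again 2 arrays each, gave the normal organ difference, and these 4 arrays share no sample with the knockout comparison. Total RNA of the tissue was hybridised to Affymetrix mouse whole-genome expression arrays, on which short probes for the 3′ part of each transcript give a fluorescence signal, here on a log2 scale, so that a difference of 1 is 2-fold. The labels name no knockout allele and no sex, and do not say whether the replicates came from different animals, so the p-values measure only the spread between these samples. They speak of tissue and not of isolated epithelium, so muscle, nerve and connective tissue were measured too, and fewer cells of a type cannot be told apart from less RNA per cell.

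p63, the product of Trp63, is a transcription factor of the p53 family that marks and maintains the basal layer of stratified epithelia. The proximal stomach of the mouse, the forestomach, is normally lined by a keratinising squamous epithelium that grows from such a basal layer. The bladder is lined by urothelium, in which basal and intermediate cells lie under superficial umbrella cells whose apical membrane is covered by plaques of uroplakins. Both organs carry smooth muscle and connective tissue whose position along the body is reflected in the Hox genes that they express.

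The 4 knockout arrays could be told apart from each other by features that the labels do not give. The mean level of the skeletal muscle list was 10.94 on knockout bladder replicate 1 and 9.43 on replicate 2, and that of the neuron list was 9.24 and 7.57. Xist, the transcript of the inactive X chromosome, stood at 12.74 and 12.87 on the knockout bladder arrays and at 6.67 and 6.19 on the knockout stomach arrays, so organ and Xist cannot be told apart by the knockout arrays alone. The Y-linked gene Eif2s3y was high on knockout stomach replicate 1 only, at 11.97. With the Xist level of each array as a covariate, 5233 genes were called in place of 5655, 4842 of them the same genes. The gap between the 3′ and 5′ actin control probe sets, a measure of RNA quality and labelling, was 0.51 on both knockout bladder arrays and 0.48 and 0.61 on the knockout stomach arrays, against 0.57 and 0.56 in WT bladder and 0.97 and 0.88 in WT stomach. WT stomach thus stood apart on this measure. The gap was added as a covariate for the organ difference in each genotype and for the difference between genotypes. Knockout against wild-type stomach is given without that covariate only.

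Trp63 itself was not lower on the knockout stomach arrays. The brightest of its 4 probe sets read 11.37 and 11.26 in knockout bladder, 13.67 and 13.78 in knockout stomach, 12.29 and 12.54 in WT bladder, and 13.16 and 13.31 in WT stomach. The knockout organs differed by -2.41 ± 0.38 (log2 difference ± SE, n = 2 per group, adjusted p = 3.16e-05 by limma with Benjamini-Hochberg adjustment), whereas at this probe set neither organ differed from its wild type past the threshold (adjusted p = 0.138 in bladder and 0.357 in stomach). The remaining 3 probe sets ordered the knockout organs the same way, and all 3 read higher in knockout than in wild-type stomach without overlap. At one of them the knockout stomach arrays read 9.71 and 9.61, the WT stomach arrays 8.71 and 8.79, and the knockout bladder arrays 6.89 and 7.14. At the second, knockout stomach read 7.73 and 7.38 against 6.43 and 6.44 in WT stomach, and at the third 10.97 and 11.49 against 9.34 and 9.85. The sources used here do not place these probe sets against the deleted part of the gene, so they check nothing about the allele.

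Upk3a and Barx1 placed each knockout array with the organ of its label. Upk3a, which encodes a uroplakin subunit, read 14.29 and 14.20 in knockout bladder and 6.64 and 6.78 in knockout stomach. Barx1, a homeobox gene of the stomach mesenchyme, read 6.93 and 7.37 in knockout bladder and 10.57 and 10.25 in knockout stomach. The groups did not overlap at either gene. Not every uroplakin gene set the organs so far apart, and Upk2, described below, was not called between the knockout organs.

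At adjusted p under 0.05, 5655 of 13613 genes (41.5%) differed between the knockout organs, with 2710 (19.9%) higher in bladder and 2945 (21.6%) higher in stomach. In wild type 6348 genes (46.6%) differed between the same organs, 3303 of them (24.3%) higher in bladder and 3045 (22.4%) higher in stomach. With the actin gap as a covariate the order of these counts reversed, to 5650 genes in knockout and 4005 in wild type, so the counts do not show which pair of organs was further apart. By the size of differences between group means, without that covariate, the knockout organs were less far apart. The SD over genes of the log2 organ difference was 1.01 in knockout and 1.17 in wild type. Each knockout bladder array against each knockout stomach array gave an SD of 0.97 to 1.10 over the 4 pairs, and the 4 wild-type pairs gave 1.18 to 1.21, without overlap. Replicates of a group differed by an SD of 0.28 to 0.40. Genes more than 4-fold apart numbered 777 (5.71%) in knockout and 836 (6.14%) in wild type. Over the single array pairs this share was 5.25% to 6.88% in knockout and 6.38% to 6.63% in wild type. The median size of the difference was 0.32 to 0.39 and 0.38 to 0.42. On these 2 measures the pairs of the genotypes overlapped, unlike on the SD.

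The lists overlapped in part. Of the 836 genes more than 4-fold apart in wild type, 363 were more than 4-fold apart the same way in knockout, which is 43.4% of the wild-type list and 46.7% of the knockout list. By side, 197 of the 318 wild-type genes higher in bladder (61.9%) and 166 of the 518 higher in stomach (32%) were shared, and the difference between these shares was not tested. Only 14 of the 836 were more than 4-fold apart in the opposite direction.

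A test of the difference itself, the organ difference in knockout minus that in wild type, called 3108 genes (22.8%), 1420 (10.4%) above 0 and 1688 (12.4%) below 0. With the actin gap as a covariate this count was 1860, of which 1776 were among the 3108. Genes were sorted by these 3 tests. An organ difference was kept by 2615 genes, which differed between organs in both genotypes in the same direction without a called difference between genotypes. It narrowed in 1545 genes, where the difference was smaller in knockout, widened in 1081, where it was larger, and turned in 408, where both genotypes showed called differences in opposite directions. Among narrowed genes 1363 differed between knockout and wild-type stomach and 102 between knockout and wild-type bladder. Among widened genes these counts were 892 and 105. Over all genes the knockout differed from wild type at 4448 (32.7%) in stomach, 2464 (18.1%) higher and 1984 (14.6%) lower. In bladder it differed at 441 (3.24%), 213 (1.56%) higher and 228 (1.67%) lower. Most called differences from wild type thus lay in the stomach. The actin gap also differed between WT and knockout stomach, and its part in the stomach count was not tested. With the actin covariate the 4 classes held 2164, 878, 649 and 215 genes.

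**Figure D1:**
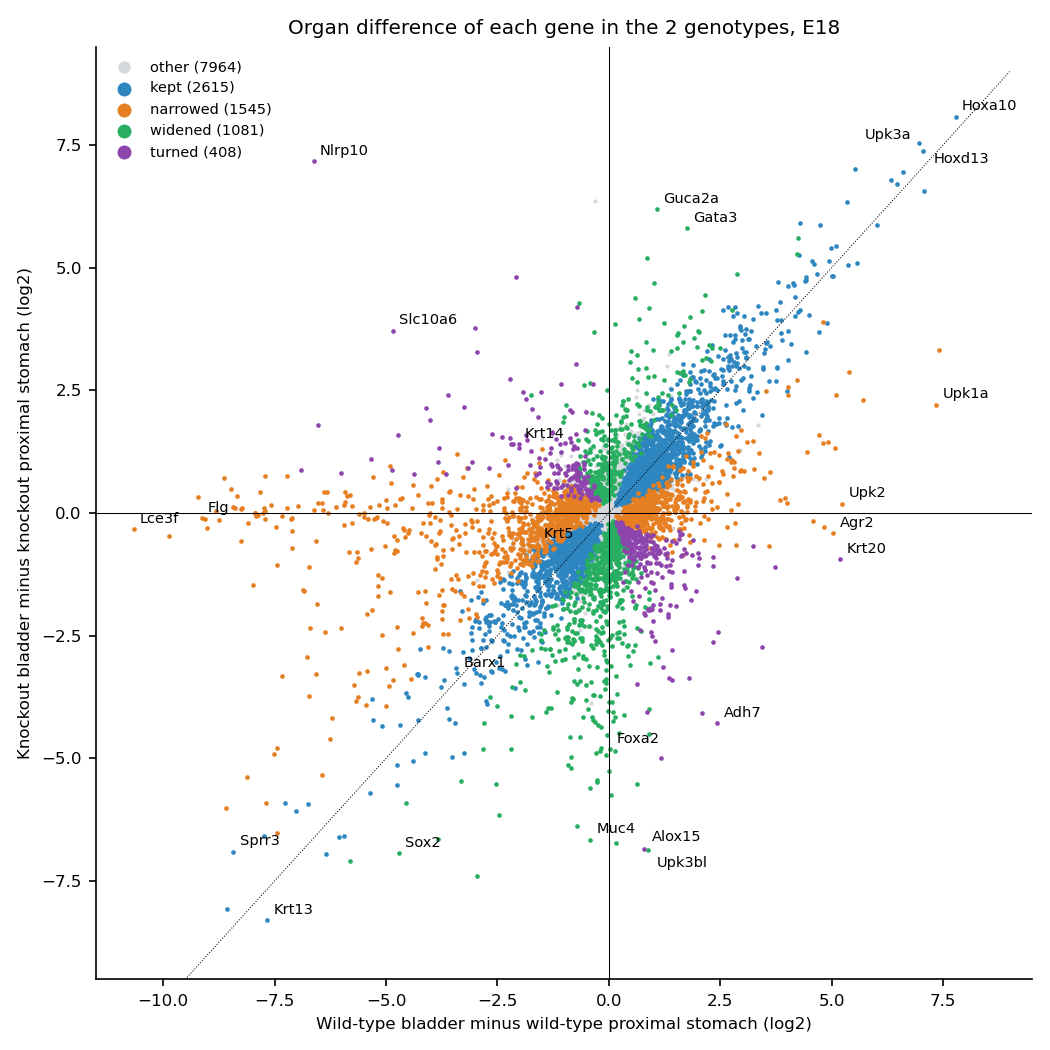
Organ difference of each of 13613 genes: x axis, wild-type bladder minus wild-type proximal stomach (log2); y axis, knockout bladder minus knockout proximal stomach (log2); each point is 1 gene, from group means of 2 arrays, and the dotted line marks equal differences. Blue genes (kept, 2615) lie along the dotted line, orange genes (narrowed, 1545) lie closer than that line to 0 on the y axis, green genes (widened, 1081) farther from it, and purple genes (turned, 408) in the upper left and lower right.

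Hox genes kept their organ difference. Hox genes are homeobox transcription factors whose paralogue number follows the position along the body axis, with high numbers towards the tail. All 11 measured posterior Hox genes (paralogues 9 to 13) of 16 listed were higher in knockout bladder, and all 11 in wild-type bladder, with a median difference of 3.64 in knockout and 3.16 in wild type. No posterior Hox gene was called for a difference between genotypes. Hoxa10 read 11.94 and 12.04 in knockout bladder against 3.70 and 4.12 in stomach, a difference of 8.08 ± 0.25 (adjusted p = 4.16e-15, limma), and of 7.78 in wild type. The low readings here and at other genes with large differences are not shown to be above background, so such differences hold on the deposited scale and are given without an exact fold. Hoxd13, of the most posterior paralogue group, read 11.52 and 11.37 against 4.23 and 3.88. Hoxd10 read 11.02 and 11.28 against 4.18 and 4.22. The organs did not overlap at any of these 3 genes.

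The anterior and middle Hox genes (paralogues 1 to 8) ran the other way. Of 16 measured among 23 listed, 12 were higher in knockout stomach and 1, Hoxd8, in knockout bladder, and in wild type the counts were also 12 and 1. Hoxc5 read 6.20 and 6.01 in knockout bladder and 11.11 and 11.22 in knockout stomach, a difference of -5.06 ± 0.18 (adjusted p = 1.83e-14, limma). Hoxc4 read 9.26 and 9.24 against 13.41 and 13.54. Of these 16 measured genes 13 fell in the kept class, as did all 11 measured posterior ones, against 19.2% of all genes tested.

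**Figure D2:**
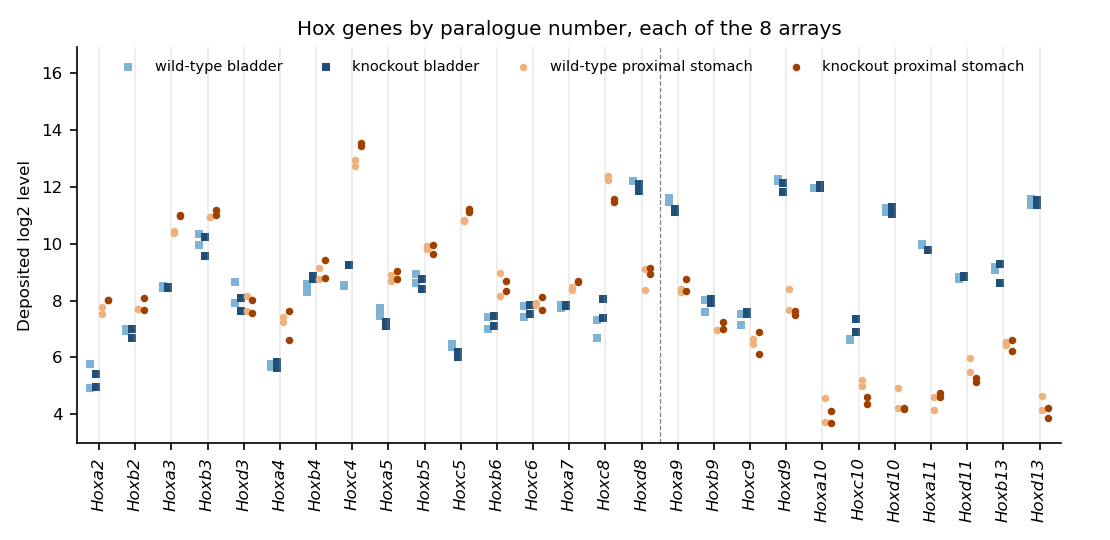
Deposited log2 level (y axis) of the 27 measured Hox genes (x axis, by paralogue number; the dashed line separates paralogues up to 8 from 9 to 13) on each of the 8 E18 arrays, with squares for bladder, circles for proximal stomach, light shades for wild type and dark shades for knockout. Light and dark points of an organ lie together at most genes, and bladder lies above stomach at every gene right of the dashed line.

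Regulators of the urogenital tract also stayed with the bladder. Of 22 measured genes on this list (31 listed), 15 were higher in knockout bladder and 3 in knockout stomach, with a median difference of 1.46 against -0.01 over all genes. Gata2, a zinc-finger transcription factor of the urogenital tract, read 13.53 and 13.33 in knockout bladder and 8.79 and 8.45 in knockout stomach, a difference of 4.81 ± 0.19 (adjusted p = 8.01e-14, limma). The T-box factor genes Tbx20 (4.73) and Tbx4 (4.15) followed, with differences of 4.41 and 3.75 in wild type. Gata3, a transcription factor of urothelium and of squamous epithelia, did not only keep its difference. It read 11.88 and 11.74 in knockout bladder, close to the 11.54 and 11.62 of WT bladder, but 5.58 and 6.42 in knockout stomach against 9.67 and 9.98 in WT stomach. Its organ difference thus widened from 1.76 to 5.81 (difference between genotypes 4.05 ± 0.49, adjusted p = 2.77e-06).

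On the stomach side the SRY-box factors of the foregut stayed high. Sox2, which marks the foregut and its squamous lining, read 12.20 and 12.43 in knockout stomach and 6.22 and 4.55 in knockout bladder, a difference of -6.93 ± 0.40 (adjusted p = 2.57e-11, limma). WT stomach read 11.96 and 12.31, so the stomach level did not differ between genotypes past the threshold (adjusted p = 0.778). Sox2 was lower in knockout than in wild-type bladder, where it read 7.18 and 7.67 (adjusted p = 0.00514). Sox21, a related factor, read 12.21 and 12.38 in knockout stomach and 5.63 and 4.79 in knockout bladder. Pax9, a paired-box factor of foregut endoderm, differed by -2.90 and Barx1 by -3.26. Foxa2, a forkhead factor of columnar endoderm, had been alike in the wild-type organs, at 6.17 and 5.75 in bladder and 5.60 and 6.25 in stomach. In knockout it read 6.13 and 5.62 in bladder and 10.57 and 10.81 in stomach, a difference of -4.81 ± 0.38 (adjusted p = 3.19e-09). Of the 19 measured foregut and stomach regulators (24 listed), 8 were higher in knockout stomach and 5 in knockout bladder, against 21.6% and 19.9% over all genes. The bladder count lies near its share, and nothing particular to the list is read from it. In wild type 6 were higher in stomach and 8 in bladder. The 5 higher in knockout bladder included Gata4, Gata5 and Gata6, which differed by 1.55, 3.93 and 3.40 and were likewise higher in wild-type bladder. Pdx1, of the distal foregut and pancreas, read 4.24 to 4.43 on the 4 knockout arrays and was not called.

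In squamous differentiation the organs drew together. This list holds the precursors of the cornified envelope, the crosslinked protein shell of keratinocytes, and the enzymes and junction proteins that build it. In wild type 32 of its 36 measured genes (42 listed) were higher in stomach and 1 in bladder, with a median difference of -6.39. In knockout 14 were higher in stomach and 3 in bladder, with a median of -0.24. The difference between genotypes was called above 0 for 29 of the 36 and below 0 for 1, and 26 fell in the narrowed class against 11.3% of all genes tested. Without knockout bladder replicate 1 the knockout counts were 13 and 3.

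Many of these genes lie side by side in the epidermal differentiation complex, a gene cluster on mouse chromosome 3 between Lor and Tchh in the RefSeq annotation (GRCm38.p6). It holds 50 protein-coding genes there, of which 31 were measured. In WT 27 of the 31 were higher in stomach and 1, Ivl, in bladder, with a median difference of -7.73. In knockout 4 were higher in stomach, 4 in bladder and 23 were not called, with a median of 0.01. The narrowed class held 23 of them and the kept class 2, Sprr3 and Rptn. For 9 of the 31 genes the probe set is one that can also bind transcripts of similar sequence, so levels of single members of the late cornified envelope (Lce) and small proline-rich (Sprr) families are uncertain.

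Neighbours within the cluster differed in behaviour, and the 250 bases upstream of the RefSeq start are shown for a pair of small proline-rich genes and a pair of S100-fused genes, of which the first named was far lower in knockout than in wild-type stomach and the second stayed high. Sequences run 5′ to 3′ along the strand of the gene. Capitals mark each TATAAA, the core of a TATA box, and each CATG, one of the centres that a half-site bound by p53-family proteins can have, searched on both strands.
Sprr1b (chr3:92438780-92439029, minus strand): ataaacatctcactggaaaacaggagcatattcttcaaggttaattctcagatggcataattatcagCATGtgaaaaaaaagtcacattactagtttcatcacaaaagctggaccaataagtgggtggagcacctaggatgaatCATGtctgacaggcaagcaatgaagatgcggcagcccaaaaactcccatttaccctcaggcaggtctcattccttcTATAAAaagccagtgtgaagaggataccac
Sprr3 (chr3:92458721-92458970, minus strand): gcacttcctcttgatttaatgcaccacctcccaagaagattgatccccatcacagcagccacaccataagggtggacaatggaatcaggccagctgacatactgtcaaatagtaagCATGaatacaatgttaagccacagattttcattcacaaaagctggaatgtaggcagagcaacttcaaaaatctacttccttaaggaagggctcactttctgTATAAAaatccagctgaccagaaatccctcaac
Hrnr (chr3:93319499-93319748, plus strand): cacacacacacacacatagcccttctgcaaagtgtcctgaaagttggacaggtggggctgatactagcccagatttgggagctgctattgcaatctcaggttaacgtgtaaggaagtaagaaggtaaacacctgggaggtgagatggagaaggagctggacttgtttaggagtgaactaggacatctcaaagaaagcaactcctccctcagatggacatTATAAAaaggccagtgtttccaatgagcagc
Rptn (chr3:93393449-93393698, plus strand): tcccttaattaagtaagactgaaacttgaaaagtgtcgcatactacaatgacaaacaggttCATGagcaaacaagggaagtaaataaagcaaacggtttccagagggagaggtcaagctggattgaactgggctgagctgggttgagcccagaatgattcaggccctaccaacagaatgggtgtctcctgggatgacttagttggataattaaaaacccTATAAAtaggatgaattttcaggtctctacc
All 4 windows hold 1 TATAAA, at 30 to 33 bases before the start, and 12.4% of 32851 RefSeq promoter windows of the same length hold one. CATG occurs at 2 places in the Sprr1b window, 1 in the Sprr3 window, 1 in the Rptn window and none in the Hrnr window, while 53.9% of all windows hold it. A match describes these letters only and is not shown to be a bound site.

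The array values of these 4 genes show the split. Sprr1b read 13.27 and 13.52 in WT stomach but 4.57 and 5.20 in knockout stomach, beside 5.03 and 5.44 in knockout bladder. Hrnr, hornerin, a filaggrin-type protein of the cornified layer, read 13.64 and 13.49 in WT stomach but 4.48 and 3.77 in knockout stomach, beside 3.66 on both knockout bladder arrays. The knockout organs overlapped at Sprr1b and lay close together at Hrnr, and neither difference passed the test (adjusted p = 0.521 and 0.541, limma). Sprr3 by contrast read 13.87 and 14.08 in knockout stomach, near the 14.50 and 14.70 of WT stomach, and 7.77 and 6.38 in knockout bladder, a difference of -6.90 ± 0.41 (adjusted p = 3.47e-11). Rptn, repetin, another filaggrin-type protein, read 12.39 and 13.23 in knockout stomach, 14.05 and 14.13 in WT stomach, and 6.62 and 5.84 in knockout bladder. The 4 members higher in knockout bladder were Ivl, Sprr1a, Sprr2f and Lce1c, by 4.88, 1.38, 1.26 and 0.87. Ivl, involucrin, a scaffold of the envelope, read 12.33 and 11.96 in knockout bladder against 7.21 and 7.31 in knockout stomach, and it alone of these was also called higher in wild-type bladder.

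**Figure D3:**
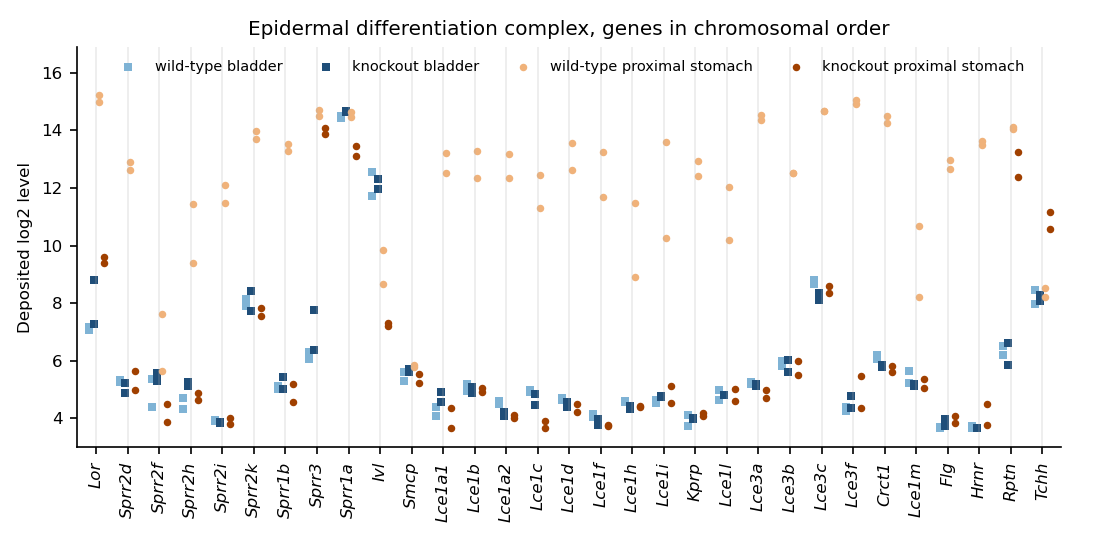
Deposited log2 level (y axis) of the 31 measured genes of the epidermal differentiation complex, in chromosomal order from Lor to Tchh (x axis), on each of the 8 E18 arrays, with squares for bladder, circles for proximal stomach, light shades for wild type and dark shades for knockout. Dark circles lie with the squares at most genes, far below the light circles, but stay high at Sprr3, Sprr1a and Rptn and lie above the light circles at Tchh.

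Outside the cluster the same split appeared among keratins. Krt13 and Krt4, a keratin pair of non-keratinising and early squamous layers, stayed with the stomach. Krt13 read 14.57 and 14.64 in knockout stomach and 6.16 and 6.46 in knockout bladder, a difference of -8.30 ± 0.27 on the deposited scale (adjusted p = 7.24e-15, limma). Krt4 read 14.51 and 14.66 in knockout stomach, and 11.09 and 8.15 in knockout bladder. The knockout bladder arrays were far apart here, and the difference of -4.97 was -6.44 without replicate 1 and -3.50 without replicate 2. Krt1 and Krt10, the pair of terminally differentiating keratinocytes, read 13.47 and 12.67 and 13.70 and 13.45 in WT stomach. In knockout stomach Krt1 read 5.98 and 5.95 and Krt10 9.54 and 9.60, and the organ differences narrowed to -0.58 (adjusted p = 0.0871) and -0.49 (adjusted p = 0.0114, limma). Lor, loricrin, the main envelope protein, fell from 15.22 and 14.97 in WT stomach to 9.40 and 9.60 in knockout stomach (adjusted p = 2.33e-08). Knockout bladder read 8.79 and 7.29.

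Basal-layer genes did not move as a block. Of 28 measured (32 listed), 18 were higher in knockout stomach and 4 in knockout bladder, with a median difference of -0.99, close to the -0.89 of wild type. The difference between genotypes was called for 16, 7 above 0 and 9 below 0. With the actin gap as a covariate these counts were 4 above 0 and 3 below 0. Krt5, the main basal keratin, read 7.44 and 7.78 in knockout bladder and 8.22 and 8.27 in knockout stomach, whereas WT bladder read 12.71 and 12.17 and WT stomach 14.10 and 13.99. It was thus lower than wild type in both organs (adjusted p = 1.22e-12 and 1.41e-15), and its organ difference narrowed from -1.60 to -0.64. Its partner Krt14 read 8.17 and 8.54 in knockout bladder and 7.08 and 6.84 in knockout stomach, and turned from -2.02 to 1.40. Col17a1 and Dsc3, which encode a hemidesmosome collagen and a desmosomal cadherin, narrowed from -3.85 to -0.89 and from -5.67 to -0.99.

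Other basal genes stayed high in knockout stomach. Krt15, a keratin of basal cells, read 15.13 and 15.07 in knockout stomach, 14.36 and 14.59 in WT stomach, and 14.26 and 14.11 in WT bladder. In knockout bladder it read 11.74 and 8.70, so the arrays of this group were far apart and both lay below the other 6. The organ difference of -4.88 ± 0.54 (adjusted p = 3.53e-07, limma) was -6.40 without bladder replicate 1 and -3.36 without replicate 2. Krt6a, an inducible keratin of stratified epithelia, read 12.69 and 13.28 in knockout stomach and 6.21 and 6.46 in knockout bladder. It was already low in WT bladder, at 7.94 and 7.41, and the WT stomach arrays read 10.04 and 12.99. Pkp1, a desmosomal plaque protein, differed by -5.90. The laminin-332 chain genes Lama3 and Lamb3 read 7.49 and 7.95 and 7.27 and 7.37 in knockout bladder, lower than in WT bladder (adjusted p = 0.000728 and 0.00096, limma), and did not differ between knockout and wild-type stomach past the threshold (adjusted p = 0.915 and 0.361). Their organ differences widened from -0.41 to -2.69 and from -0.99 to -2.55.

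Urothelial genes split in the opposite sense, since many reached a high level in knockout stomach. Of 23 measured (24 listed), 13 were higher in knockout bladder and 3 in knockout stomach, with a median difference of 0.69 against 1.68 in wild type. The difference between genotypes was called for 12, 2 above 0 and 10 below 0. Upk2, a uroplakin subunit, read 14.04 and 14.06 in knockout stomach beside 14.30 and 14.20 in knockout bladder, but 8.23 and 9.24 in WT stomach. Its organ difference narrowed from 5.24 to 0.19, and in knockout it did not pass the test (adjusted p = 0.644, limma). Upk1a, a tetraspanin uroplakin, read 10.89 and 11.06 in knockout stomach against 5.82 and 5.28 in WT stomach, and narrowed from 7.35 to 2.21. Upk1b, its tetraspanin relative, read 12.37 and 12.54 against 8.71 and 8.74, and narrowed from 4.91 to 1.45. Snx31, a sorting nexin of umbrella cells, narrowed from 7.41 to 3.33, and the urea transporter gene Slc14a1 from 3.59 to -0.67.

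Upk3a did not follow its plaque partners. With 6.64 and 6.78 in knockout stomach and 6.95 and 7.01 in WT stomach it differed by 7.54 ± 0.19 between the knockout organs (adjusted p = 1.15e-16, limma), and by 6.96 between the wild-type organs. Pparg, a nuclear receptor of urothelial differentiation, widened from 2.17 to 4.44, with 11.94 and 11.60 in knockout bladder and 7.44 and 7.21 in knockout stomach. Gsdmc2, a gasdermin gene, read 12.86 and 11.52 in knockout bladder and 4.21 and 6.15 in knockout stomach. Upk3bl, a uroplakin-3-like gene, lay on the stomach side: it read 14.36 and 14.50 in knockout stomach, 7.66 and 7.46 in knockout bladder, 10.50 and 9.98 in WT bladder, and 8.92 and 9.79 in WT stomach. Both knockout groups lay outside the range of the wild-type arrays, on opposite sides.

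Genes of simple epithelium, the keratins, claudins and adhesion molecules of single-layered linings, shifted towards the stomach. Of 34 measured (35 listed), 23 were higher in knockout stomach and 3 in knockout bladder, with a median difference of -0.96. In wild type the counts were 14 and 12 with a median of -0.10, and the difference between genotypes was called below 0 for 19 and above 0 for 5. Krt18, a simple keratin, read 14.54 and 14.59 in knockout stomach against 10.56 and 11.04 in WT stomach, and its organ difference narrowed from 3.85 to 0.26. Krt20, of umbrella cells and gut surface cells, read 10.71 and 10.64 in knockout bladder, 11.30 and 11.92 in knockout stomach, and 5.63 and 5.75 in WT stomach. Its difference turned from 5.19 to -0.94 (adjusted p = 0.0387 for the knockout organs, limma). Agr2, a disulfide isomerase of mucus-producing cells, narrowed from 5.04 to -0.40, with 13.78 and 13.67 in knockout stomach against 6.18 and 7.24 in WT stomach. Muc4, Muc1 and Cldn3, encoding membrane mucins and a tight-junction claudin, went further. Muc4 read 11.18 and 11.91 in knockout stomach but 4.32 to 5.18 on the other 6 arrays, a knockout organ difference of -6.66 ± 0.35 (adjusted p = 5.94e-12), and Muc1 and Cldn3 differed by -4.56 and -4.05.

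**Figure D4:**
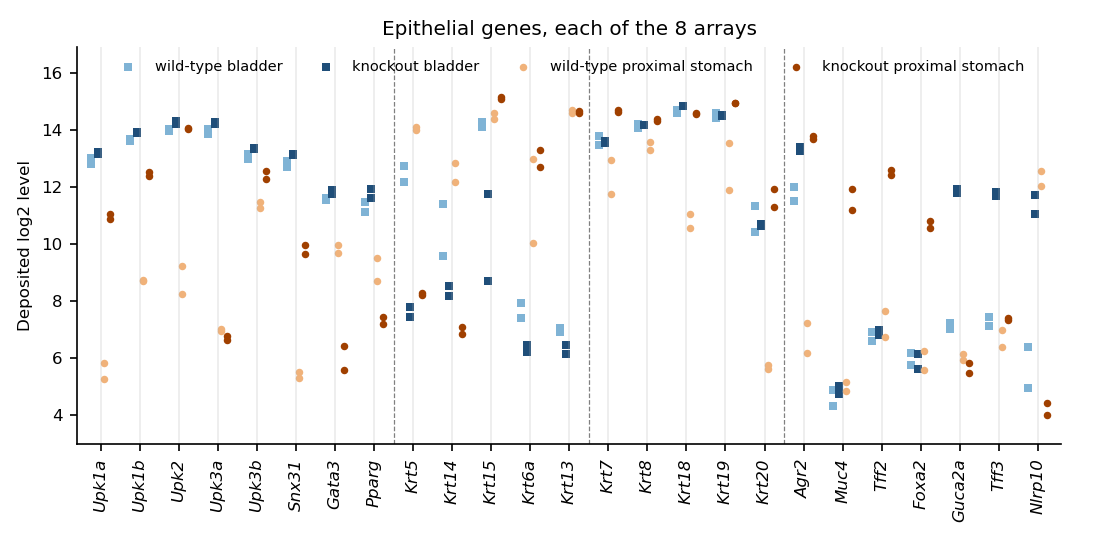
Deposited log2 level (y axis) of 25 epithelial genes (x axis) on each of the 8 E18 arrays. Squares mark bladder and circles proximal stomach, with light shades for wild type and dark shades for knockout. Dashed lines separate urothelial genes, keratins of stratified epithelium, keratins of simple epithelium, and a last group of genes. That group holds Agr2, which narrowed, and genes that widened or turned. Dark circles reach the level of the squares at Upk2, Krt18 and Agr2, stay with the light circles at Upk3a and Krt13, and lie above all other points at Muc4, Tff2 and Foxa2.

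The organs also diverged at some genes where they had been alike. In the gastric gland list 12 of 25 measured genes (28 listed) were higher in knockout stomach and 3 in knockout bladder, against 21.6% and 19.9% over all genes. In wild type the counts were 3 and 2, against 22.4% and 24.3% over all genes. The difference between genotypes was called above 0 for 2 and below 0 for 7. With the actin gap as a covariate these counts were 2 and 5. Ctse lay on the bladder side in both genotypes. Its means were 12.06 in knockout bladder and 8.37 in knockout stomach, and 10.40 and 5.68 in the wild-type organs. Tff2, a trefoil peptide secreted by gastric mucous cells, read 12.58 and 12.43 in knockout stomach and 6.80 and 6.98 in knockout bladder, a difference of -5.61 ± 0.26 (adjusted p = 8.1e-13, limma), whereas the 4 wild-type arrays read 6.60 to 7.64. Tff1, a second trefoil peptide, and Kcnq1, a potassium channel subunit used in acid secretion, differed by -4.16 and -3.69. Markers of mature gastric cell types did not join them: Atp4b, of the acid pump, and Cblif, the intrinsic factor of parietal and chief cells, read 7.09 to 7.30 and 4.68 to 5.43 on the 4 knockout arrays and were not called. Gkn1 and Gkn2, the gastrokines of surface mucous cells, were high on knockout stomach replicate 2 alone, at 8.53 and 8.22 against 4.51 and 4.44 on replicate 1. Neither was called.

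Secretory genes widened on both sides. Of 18 measured goblet and mucus genes (20 listed), 7 were higher in each knockout organ, and 8 fell in the widened class against 7.94% of all genes tested. Tff3, the trefoil peptide of goblet cells, read 11.70 and 11.83 in knockout bladder, 7.42 and 7.34 in knockout stomach, and 7.44 and 7.12 in WT bladder, a knockout organ difference of 4.39 ± 0.20 (adjusted p = 7.87e-13, limma). Reg4, a regenerating-family lectin, read 9.76 and 10.47 in knockout bladder against 6.16 and 6.17 in knockout stomach. Clca1, a secreted regulator of chloride channels, differed by 4.62, and was kept. Spink4, a secreted protease inhibitor, lay on the other side, with 13.84 and 13.90 in knockout stomach and 8.77 and 9.25 in knockout bladder. The wild-type arrays read 6.02 to 6.61, so Spink4 was higher than wild type in both knockout organs (adjusted p = 0.000205 in bladder and 5.68e-13 in stomach). Muc2, the gel-forming mucin of goblet cells, read 5.46 to 6.50 on the 4 knockout arrays and was not called.

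Intestinal and endocrine genes lay on both sides. Guca2a, guanylin, a peptide ligand of the gut guanylate cyclase receptor, read 11.78 and 11.92 in knockout bladder, 5.85 and 5.48 in knockout stomach, and 7.02 and 7.24 in WT bladder. Its organ difference widened from 1.09 to 6.19 (difference between genotypes 5.10 ± 0.33, adjusted p = 2.09e-10, limma). Lct, lactase, was higher in bladder in both genotypes, by 4.65 in knockout and 4.17 in wild type. Slc15a1, a peptide transporter gene, was kept on the stomach side, at -5.94 and -6.75. Vil1, villin of the microvillus, read 11.16 and 11.23 in knockout stomach and 7.76 and 7.45 in knockout bladder. Cdx1 and Cdx2, the intestinal homeobox genes, read 5.19 to 5.72 on the 4 knockout arrays, and neither was called. Of 34 measured intestinal genes (38 listed), 8 were higher in each organ, close to the shares over all genes (19.9% and 21.6%). Among 19 measured enteroendocrine genes (24 listed), 8 were higher in knockout stomach and 4 in knockout bladder. Insm1, a transcription factor of endocrine precursors, read 9.98 and 10.07 in knockout stomach against 5.03 and 4.61 in knockout bladder, and 4.39 to 5.37 in wild type. Scg5, a secretory-granule chaperone, read 10.14 and 7.80 in knockout bladder, and its difference of -2.27 was -3.44 without replicate 1 and -1.09 without replicate 2.

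In 408 genes the organ difference changed sign between genotypes, 253 from bladder to stomach and 155 the other way. Nlrp10, a pyrin-domain protein of the NLR family without leucine-rich repeats, changed most. It read 11.05 and 11.72 in knockout bladder and 4.01 and 4.43 in knockout stomach, but 4.97 and 6.38 in WT bladder and 12.55 and 12.03 in WT stomach. The organ difference was 7.17 ± 0.51 in knockout (adjusted p = 6.12e-10, limma) and -6.62 in wild type, and both organs contributed, since the knockout differed from wild type in bladder (adjusted p = 4.42e-07) and in stomach (6.66e-11). Adh7, a retinol-oxidising alcohol dehydrogenase, went from 2.44 to -4.28, with 12.24 and 11.93 in knockout stomach against 6.44 and 5.34 in WT stomach. Wfdc2, a small secreted protein of glandular epithelia, went from 3.44 to -2.72, and Alox15, a lipoxygenase, from 0.79 to -6.85. Alox15 read 12.30 and 12.73 in knockout stomach and 5.16 to 6.30 on the other 6 arrays. Aox3, an aldehyde oxidase, turned as well, with 11.67 and 11.72 in knockout stomach against 6.65 and 6.75 in knockout bladder, and Clic6, a chloride channel protein, went from 2.08 to -4.07.

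The remaining genes at the head of the knockout comparison belonged to no single list. Fmo5, a flavin monooxygenase, read 13.40 and 13.54 in knockout bladder and 6.66 and 6.68 in knockout stomach. Ttr, transthyretin, the carrier of thyroid hormone and of retinol-binding protein, read 14.15 and 14.11 against 7.02 and 7.83. It was kept. Of the 11 measured genes of the liver list (15 listed), which holds Ttr, 2 were higher in knockout bladder and 1 in knockout stomach, with a median of 0.90 that was 0.26 without bladder replicate 1. The second was Fgb, a fibrinogen chain, at 7.75 and 6.69 against 6.12 and 5.85 (1.24, adjusted p = 0.0212, limma). Albumin, Alb, read 8.44 and 6.61 in knockout bladder and 6.36 and 6.35 in knockout stomach and was not called. Asz1 and Hoxa11os, a germ-cell gene and the antisense transcript of Hoxa11, differed by 6.57 and 5.87 and were kept. On the stomach side Fads2b, of the fatty acid desaturase family, read 12.60 and 12.82 in knockout stomach and 4.80 and 4.47 in knockout bladder, a difference of -8.08. Nccrp1, Mab21l4 and Scel (sciellin), genes of differentiating squamous epithelia, differed by -6.95, -6.61 and -6.59, and all were kept. S100a3, a calcium-binding protein, and Calcb, a calcitonin-family peptide, widened to -6.73 and -5.53. Cyp2f2, a cytochrome P450 of airway secretory cells, read 13.36 and 13.32 in knockout stomach but 7.80 and 4.10 in knockout bladder, and its difference of -7.39 was -9.24 without bladder replicate 1 and -5.54 without replicate 2.

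Wnt and Notch genes leaned towards the stomach in both genotypes, and Hedgehog genes did not. Wnt proteins are secreted ligands that act through Frizzled receptors, Notch is a receptor cut upon contact with ligands on neighbouring cells, and Hedgehog ligands made by epithelium act on the underlying mesenchyme. Of 25 measured Wnt pathway genes (33 listed), 15 were higher in knockout stomach and 4 in knockout bladder, with a median of -0.71. Over all genes 21.6% and 19.9% were called in these directions. In wild type 9 Wnt genes were higher in stomach and 5 in bladder, and the difference between genotypes was called for 6. Among ligands, Wnt4 was kept on the stomach side (-2.58) and Wnt2 on the bladder side (3.45, with 9.34 and 9.52 against 6.04 and 5.93). The secreted inhibitors Wif1 and Notum set the knockout stomach apart: Wif1 read 8.64 and 8.45 there and 3.73 to 4.18 on the other 6 arrays, and Notum read 11.16 and 10.95 there and 7.96 and 7.37 in knockout bladder. Axin2, a target of the pathway, was kept at -1.61, with -1.22 in wild type. Of 17 measured Notch genes (18 listed), 13 were higher in knockout stomach and 0 in knockout bladder, with a median of -0.80. Without knockout bladder replicate 1 the median was -0.71. In wild type 7 Notch genes were higher in stomach and 1 in bladder, and the difference between genotypes was called for 5. The receptors Notch3 and Notch4 differed by -2.03 and -1.97, the ligand Dll3 by -2.32 and the modifying enzyme Lfng by -1.72.

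Of 13 measured Hedgehog genes (15 listed), 4 were higher in each knockout organ, against 19.9% in bladder and 21.6% in stomach over all genes. Of these 13, 2 turned, 2 narrowed and 4 widened, against 3%, 11.3% and 7.94% of all genes tested. The difference between genotypes was called above 0 for 3 and below 0 for 5. With the actin gap as a covariate these counts were 1 and 4. Shh, the ligand of both linings, read 10.96 and 10.65 in knockout bladder and 9.91 and 10.03 in knockout stomach, a difference of 0.83 that was not called (adjusted p = 0.158, limma). WT bladder read 11.91 and 12.41 and WT stomach 7.66 and 9.40. The difference between genotypes of -2.80 (adjusted p = 0.00327) did not pass with the actin covariate (adjusted p = 0.0664). Ihh, a second ligand, read 8.73 and 8.13 in knockout stomach and 5.71 to 6.32 on the other 6 arrays. Ptch1, the receptor and a target of the pathway, turned from 0.84 to -0.50, and Gli1, a target, read 8.06 and 8.13 in knockout bladder and 9.70 and 8.93 in knockout stomach (-1.22, adjusted p = 0.00211). Without knockout stomach replicate 1 Gli1 was not called (adjusted p = 0.0612). Hhip, an inhibitor that is itself a target, narrowed from 1.96 to 0.23.

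Smooth muscle genes kept their difference. All 22 listed smooth muscle genes were measured, 21 were higher in knockout bladder and none in knockout stomach, with a median of 1.27 in both genotypes and no called difference between genotypes. Smtn (smoothelin) and Lmod1 (leiomodin), of the contractile apparatus, differed by 2.50 and 2.27. Of 13 measured skeletal muscle genes (20 listed), 9 were higher in knockout bladder and 0 in knockout stomach, against 19.9% and 21.6% over all genes. Their median difference was 2.40, and 0.62 without bladder replicate 1. In wild type 5 were higher in bladder and 3 in stomach, with a median of -0.21. The difference between genotypes was called above 0 for 4, so this list did not keep its difference as a whole. Acta1, Tnnc2, Tnnt3 and Ckm, genes of striated muscle contraction and energy supply, were high on both bladder arrays. Acta1 for instance read 14.27 and 14.25 against 7.93 and 7.91, and these 4 were kept. Among the 4 knockout arrays Myog and Mylpf, of embryonic muscle fibres, were high on bladder replicate 1 alone. Their means were 8.48 and 9.63 in WT stomach, and 4.87 and 7.88 in WT bladder. Myog read 8.88 and 5.26 in knockout bladder and 5.09 and 4.22 in knockout stomach. Its difference of 2.42 was 0.61 and not called without replicate 1 (adjusted p = 0.419, limma). The part of skeletal muscle tissue on that array in other results was not tested beyond leaving the array out.

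Nerve genes leaned towards the stomach and depended on the same array. Of 17 measured neuron genes (22 listed), 7 were higher in knockout stomach and 4 in knockout bladder. Over all genes 21.6% and 19.9% were called in these directions. In wild type 12 neuron genes were higher in stomach and 1 in bladder. The median knockout difference was -0.77, and it was -1.36 without bladder replicate 1 and 0.02 without replicate 2. Snap25, a synaptic vesicle fusion protein, read 10.49 and 7.77 in knockout bladder and 12.26 and 12.46 in knockout stomach. Tubb3, a neuronal tubulin, read 9.90 and 7.33 against 10.56 and 10.21, and its difference of -1.77 was not called without replicate 2 (-0.48, adjusted p = 0.468, limma).

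Lists of other cell types are read against the 19.9% of all genes that were higher in knockout bladder and the 21.6% higher in knockout stomach. Of 23 measured fibroblast and matrix genes (24 listed), 14 were higher in knockout bladder and 1 in knockout stomach, with a median of 0.50. Immune genes gave 5 of 19 (20 listed) on the bladder side and none on the stomach side. Endothelial genes gave 1 and 4 of 17 (18 listed), mesothelial genes 4 and 5 of 15, and proliferation genes 3 and 0 of 23 (24 listed). The immune, endothelial and mesothelial counts lie near those shares on at least 1 side, and nothing particular to these lists is read from them. Msln, a mesothelial surface protein that some epithelia also make, read 13.50 and 13.70 in knockout stomach and 11.29 and 10.91 in knockout bladder, while Wt1, a mesothelial transcription factor, was higher in bladder by 1.02. Of 18 measured retinoid genes (22 listed), 7 were higher in knockout stomach and 4 in knockout bladder. Lrat, which stores retinol as esters, was kept on the bladder side at 3.14. Of the 14 measured p53 family members and targets (17 listed), 7 were higher in knockout stomach and 2 in knockout bladder. Cdkn1a, a cell-cycle inhibitor and p53 target, was kept at -1.72, and Trp73, the third family member, fell from 9.42 and 9.05 in WT stomach to 6.14 and 5.79 in knockout stomach (adjusted p = 1.17e-09, limma), beside 5.45 and 6.14 in knockout bladder.

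**Figure D5:**
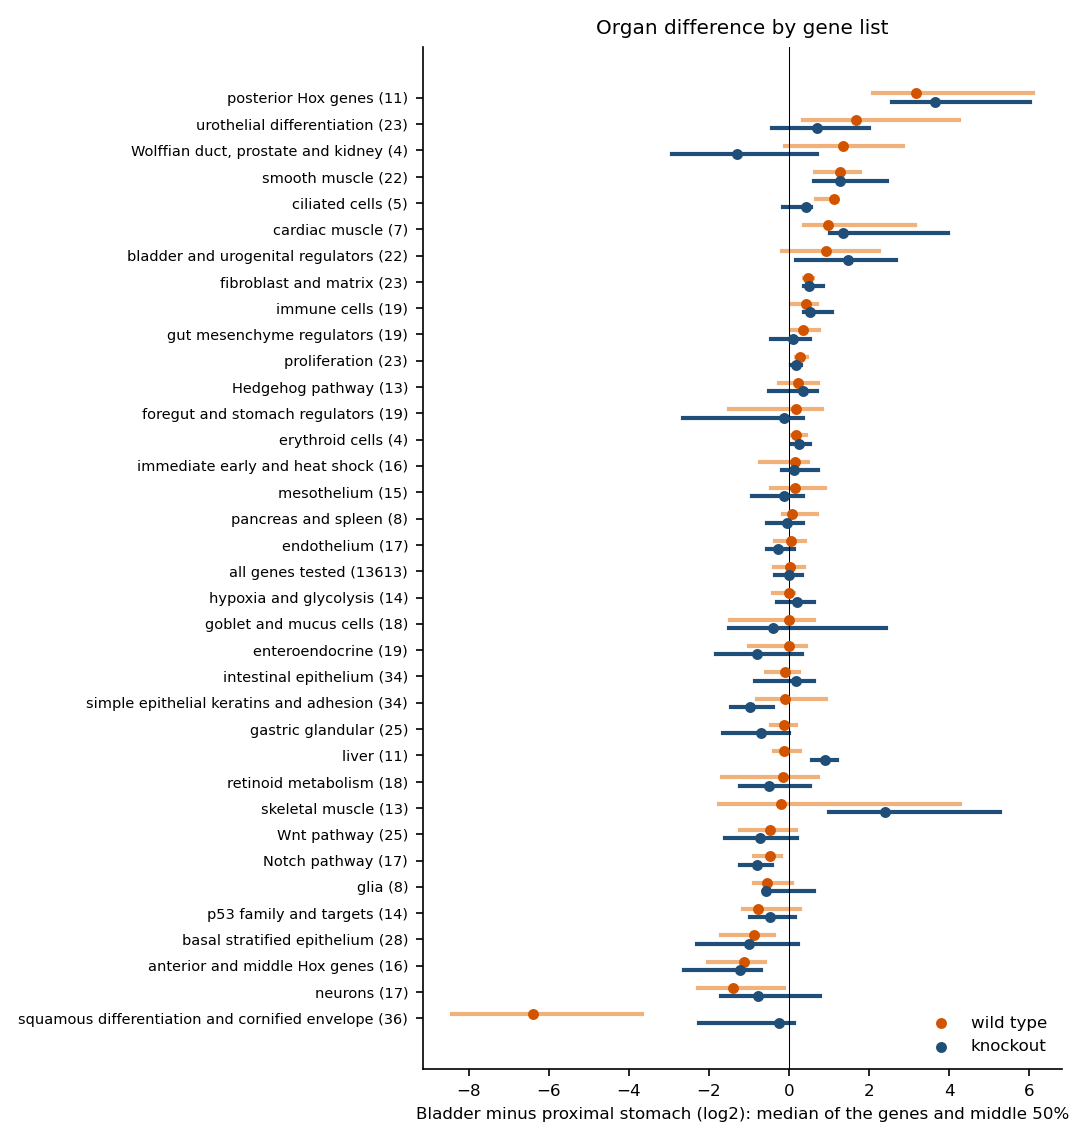
Bladder minus proximal stomach (x axis, log2) for each gene list (y axis, with the number of measured genes) and for all 13613 genes tested, in wild type (orange) and knockout (blue); points are medians over the genes of a list and bars span the middle 50% of its genes. Posterior Hox genes and smooth muscle lie at about the same place in both genotypes, squamous differentiation moves from a median of -6.39 to -0.24, and urothelial differentiation from 1.68 to 0.69.

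Set against all groups of the same stage, the knockout stomach had no close neighbour. By the SD over genes of the difference of group means, it lay 0.95 from knockout distal stomach, 0.99 from wild-type distal stomach, 1.01 from knockout bladder, 1.02 from WT bladder and 1.03 from WT proximal stomach, its own wild type. WT proximal stomach had no close neighbour either, since knockout proximal stomach was its nearest group and WT bladder, at 1.17, the next. Knockout bladder lay 0.37 from WT bladder and 1.01 from knockout proximal stomach, its nearest group of another organ. It lay 1.08 from knockout distal stomach, 1.09 from knockout large intestine and 1.20 from WT proximal stomach. These distances share groups with each other and are given as a description.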

How the data were processed

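Arrays of mouse tissue were scanned by the authors, and the deposited values are log2 expression per probe set. The submitters' processing notes name Affymetrix Expression Console and Partek, while the summarisation method is not given in the sources used here. Of 45037 non-control probe sets, those above the array median on at least 2 of 28 arrays were kept, and each gene with a single symbol was represented by its brightest probe set, giving 13613 genes. One model over 28 arrays, with a mean for each of 14 groups, was fitted with limma 3.58.1 in R 4.3.3 (lmFit, contrasts, eBayes with a variance trend), and p-values were Benjamini-Hochberg adjusted over all genes. It was tested on simulated data. With 2 arrays a group an exact test cannot go below p = 0.333, so calls rest on the spread pooled over groups, and precision is limited by how few arrays there were. Replicate numbers were not used as a block: replicate differences correlated at 0.04 between the knockout organs, 0.14 between the wild-type organs and 0.25 between the stomach groups, and replicate 1 carried Y-linked signal in each of these groups except knockout bladder. Named by rule, passing over clone names and sex-linked genes, were Trp63, the 15 largest called, non-overlapping knockout organ differences each way, the 10 largest called differences between genotypes each way, and up to 4 called members of a list. Other list members were chosen after their values were seen, and the comparison and gene lists were chosen with earlier results of these data known. Promoter sequences are RefSeq's (GRCm38.p6).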

Additional observations from a re-analysis of the deposited data

Results flagged for a closer look

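The organ difference in knockout differed from that in wild type, by a test of the difference itself, for 3108 genes (limma, adjusted p under 0.05). The genes furthest above 0, where bladder gained on stomach, were Nlrp10 (13.79 on the log2 scale), Lce3f (10.33), Lce3a (9.54), Hrnr (9.42), Lce1a1 (9.34), Flg (9.04), Defb4 (8.97), Cdsn (8.94), Serpinb3a (8.87) and Teddm3 (8.73). The genes furthest below 0, where stomach gained on bladder, were Upk3bl (-7.76), Alox15 (-7.64), S100a3 (-6.88), Adh7 (-6.72), Muc4 (-6.24), Aox3 (-6.18), Calcb (-6.17), Wfdc2 (-6.16), Clic6 (-6.15) and Krt20 (-6.13). WT stomach, which enters each of these values, also had the largest gap between 3′ and 5′ actin probe sets among the 8 arrays.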

How the results depend on the processing

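With the actin gap as a covariate the wild-type organs differed at 4005 genes and the genotypes at 1860. The SD of the organ difference was 0.90 in knockout and 1.04 in wild type with no filter, 1.23 in wild type with a filter at the 75th percentile, and 1.15 in wild type with the mean of probe sets. With 1 replicate left out at a time the counts ranged from 4091 to 4810 genes for the knockout organs, 4838 to 5500 for the wild-type organs and 2175 to 3238 for the difference between genotypes, and the SDs from 0.99 to 1.06 and from 1.17 to 1.19. With the mean of probe sets Mbp reversed, to 0.31 between the knockout organs (adjusted p = 0.269, limma) and to 0.98 between genotypes (adjusted p = 0.0248). With the replicate number as a block the counts were 5660, 6375 and 3132 (knockout organs, wild-type organs and genotypes), though whether shared numbers mark pairs is not settled. Over 3980 values of 240 differences of named genes, 3780 kept their direction and their side of the threshold, 198 lost the call and 2 reversed, those of Mbp. All 240 differences were picked among those called in the main fit of these data, so their counts do not speak for other genes. The cause of these changes was not tested.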
